A study of Mus musculus with 8 samples.

Results

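The genes that encode the proteasome and its activators were examined in 8 SAGE libraries of neural tube tissue from mouse embryos of diabetic mothers. Members were all gene symbols of the count tables that begin with Psm, a letter from a to g and a number, together with AI314180, the older symbol of Ecpas. AI314180 was added to the symbol pattern with its earlier result in these data known. This gave 50 of the 26608 listed genes, and 1 of them, Psmc3ip, fits the pattern only by its letters, because it encodes a meiotic recombination factor and no proteasome part.

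Every library came from FVB embryos of diabetic dams at embryonic day 8.5, so no tissue from non-diabetic pregnancies was compared, and the labels do not say how the diabetes arose. Laser microdissection of cryosections gave the tissue. Open neural tubes 9, 10, 13 and 14 are 4 libraries of normally shaped tissue taken directly in front of closure site 1, the first point of fusion of the folds. The 4 protrusion libraries were of outgrowths cut from the open neural plate, of which protrusion 1 was labelled as separated and protrusions 2, 3 and 4 as attached. SAGE counts a short tag near the 3′ end of each transcript. Levels are given as CPM, the reads of a gene scaled to the same library total in every sample, and do not grow with gene length. No label states that each library is of a different embryo, and protrusions 1 and 2 carry titles with a common stem. The p-values therefore cover only the library-to-library spread, some of which may be technical, and are too small if 2 libraries share an embryo. In such bulk tissue, fewer cells of a type and less RNA per cell cannot be told apart.

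The proteasome is the protease that removes ubiquitin-tagged proteins in every cell, among them the cyclins that drive embryonic cell division. Its barrel-shaped 20S core has outer rings of alpha subunits (Psma), which form the gate, and inner rings of beta subunits (Psmb), which hold the cutting sites. The 19S particle caps the barrel. Its base carries a ring of ATPases (Psmc) that unfold the substrate, and its lid, built of non-ATPase subunits (most of the Psmd genes), removes ubiquitin. Activators of the Psme family can take the place of the 19S cap, Psmf1 binds and inhibits the core, and Psmg and a few Psmd proteins are assembly chaperones. The subunits act in fixed ratios within the particle.

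Total reads ranged from 5668054 to 16655583 per library, and 3 reads stood for 0.18 to 0.529 CPM. The libraries differed in complexity along with the groups. At an equal depth of 5668054 reads, open neural tubes were expected to show 9920 to 11256 genes and protrusions 14391 to 15537. Of the 3280 genes whose mean lay between 5 and 20 CPM, each open neural tube missed 4.85% to 18.8% and each protrusion 0.0915% to 0.549%. The 6 neural tube markers were found in both groups, with sums of 165 to 967 CPM in open neural tube, 946 CPM in the separated protrusion and 401 to 658 CPM in the attached ones. The markers did not go one way: the attached protrusions had at most 6.85 CPM of Sox1 and 7.21 CPM of Pax6, but 23.9 to 50.7 CPM of Sox3 against 0 to 3.18 CPM in open neural tube, and 91.9 to 144 CPM of Cdh2 against 31.4 to 88.3 CPM. Open neural tube 13 was low in Sox1, Sox2 and Pax6 (15.3, 30.9 and 4.92 CPM). The 6 markers of the primitive streak and posterior axis summed to 6.62 to 48 CPM in open neural tube, 308 CPM in the separated protrusion and 1105 to 1363 CPM in the attached ones. The 7 endothelial markers summed to 7.5 to 164 CPM in open neural tube, 34.7 CPM in the separated protrusion and 1.29 to 3.37 CPM in attached protrusions. Of these markers, Tek alone stood at 106 CPM in open neural tube 13. Kdr and Flt1 were at 0 in all open neural tubes and at most 0.491 CPM in protrusions. The 7 erythrocyte markers spanned 1.06 to 1007 CPM and 0.43 to 47.1 CPM in open neural tube and protrusions. In the same order, 5 surface ectoderm markers summed to 32.8 to 281 CPM and 62.3 to 165 CPM. The 6 gut endoderm markers summed to 77.6 to 159 CPM and 115 to 302 CPM. Of the surface ectoderm list, Krt18 stood at 197 CPM in open neural tube 13 and at 27 to 31.2 CPM in the other open neural tubes. The part of complexity, of these markers or of axial position in the results was not tested.

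A SAGE read is a tag that starts at a restriction site. The labels give neither the enzyme nor the tag length, and CATG at the site nearest the 3′ end with 22 bases after it was assumed here from the usual chemistry of such kits; the tags and the counts of shared tags below rest on that assumption. All 50 members matched a gene of the GENCODE M21 annotation (AI314180 as Ecpas), and the main transcript of each held at least 1 CATG. The tags of 6 members that the results turn on are shown, 5′ to 3′, with CATG in capitals and the 22 bases after it in lower case. They were read from the reference transcripts of build GRCm38, which is not the build mm9 of the deposited counts. The sources used here do not give which tag was counted for a gene.
Psma2, last site: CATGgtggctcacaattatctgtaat
Psma2, ninth site: CATGggaaggtgacaccttggtctag
AI314180 (Ecpas): CATGtttagtttggtagtctccagac
Psma4: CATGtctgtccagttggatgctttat
Psme1: CATGgagatccgaaatgcttatgctg
Psmb10: CATGgaggtggaatgaagtggcctga
Psmb3: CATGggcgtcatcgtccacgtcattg

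The Psma2 tag lies in the 3′ UTR at chr13:14627313-14627338 on the plus strand, 324 bases from the transcript end. Of the 11 CATG sites in this transcript of 2911 bases, the last tag is also found in the noncoding RNA gene Snhg15 and the tenth in 6 other genes, while the first 9 were found in no other annotated gene. Reads from the last sites of Psma2 could be shared with or lost to those genes, which was not tested. Only annotated transcripts were searched for shared tags, so copies elsewhere in the genome would not have been seen. The AI314180 tag lies in the 3′ UTR at chr4:58798969-58798994 on the minus strand, 84 bases from the end, and was found in no other gene. This is the tag of the main transcript. The 3 protein-coding transcripts of AI314180 in the basic annotation set have 3 different last tags. The Psma4 tag lies in the 3′ UTR at chr9:54957933-54957958 on the plus strand, and that of Psmb10 spans the stop codon at chr8:105935784-105935809 on the minus strand. Both were found in their own gene only. The Psme1 tag crosses an intron within chr14:55581117-55581304 on the plus strand, is coding, and is shared with 1 processed pseudogene. The Psmb3 tag crosses an intron within chr11:97712508-97713394 on the plus strand, is coding, and is shared with 2 pseudogenes. Over all members, 28 tags lay in the 3′ UTR, 16 in coding sequence and 6 across the stop codon. In 4 members, Psmb8, Psmc1, Psmd1 and Psmd12, the site lay too near the transcript end for a tag of 26 bases. Of the other 46, 39 tags were found in their own gene only and 7 also in another gene: besides those of Psma2, Psmb3 and Psme1 these were the tags of Psma5, Psmd13, Psmd14 and Psme2. The tags of Psmb7 and Psmc3ip lay opposite transcripts of another gene on the other strand. The sources used here do not give whether strand was used in counting.

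The proteasome genes took almost the same share of each library. Their summed level was 12598, 11598, 13142 and 12593 CPM in open neural tubes 9, 10, 13 and 14 and 13446, 11750, 11527 and 12476 CPM in protrusions 1 to 4. The 2 groups overlapped, with means of 12483 ± 644 CPM and 12300 ± 865 CPM (SD, n = 4 each). This is 1.15% to 1.34% of all reads. Of the 50 members, 45 had enough reads to be tested by edgeR's quasi-likelihood test, and the other 5, Psma8, Psmb3, Psmb8, Psmb9 and Psmb11, did not pass the filter on low counts. The design sets protrusions against open neural plate of normal shape. Of the 45 tested members, 2 passed a Benjamini-Hochberg adjusted p of 0.05 over all 11036 genes tested, both lower in protrusions: the alpha subunit Psma2 and the adaptor AI314180. Over all genes tested, 0.607% passed, 0.281% higher and 0.326% lower. Among genes with a mean of at least 50 CPM, 2 of 31 members passed, and 1.65% of all such genes did. Because AI314180 was added by name, the symbol pattern alone gave only Psma2. The median log2 fold change was −0.05 over the tested members and 0.08 over all genes tested, and 39 of the 45 members stayed within a 2-fold fitted difference, 86.7% against 74.9% of all genes tested. Among genes with a mean of at least 50 CPM these shares were 87.1% of members and 89.4% of all such genes, and both medians were −0.08. Without any scaling factor the median over the members was 0.04, and 39 of the 45 kept their sign.

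**Figure D1:**
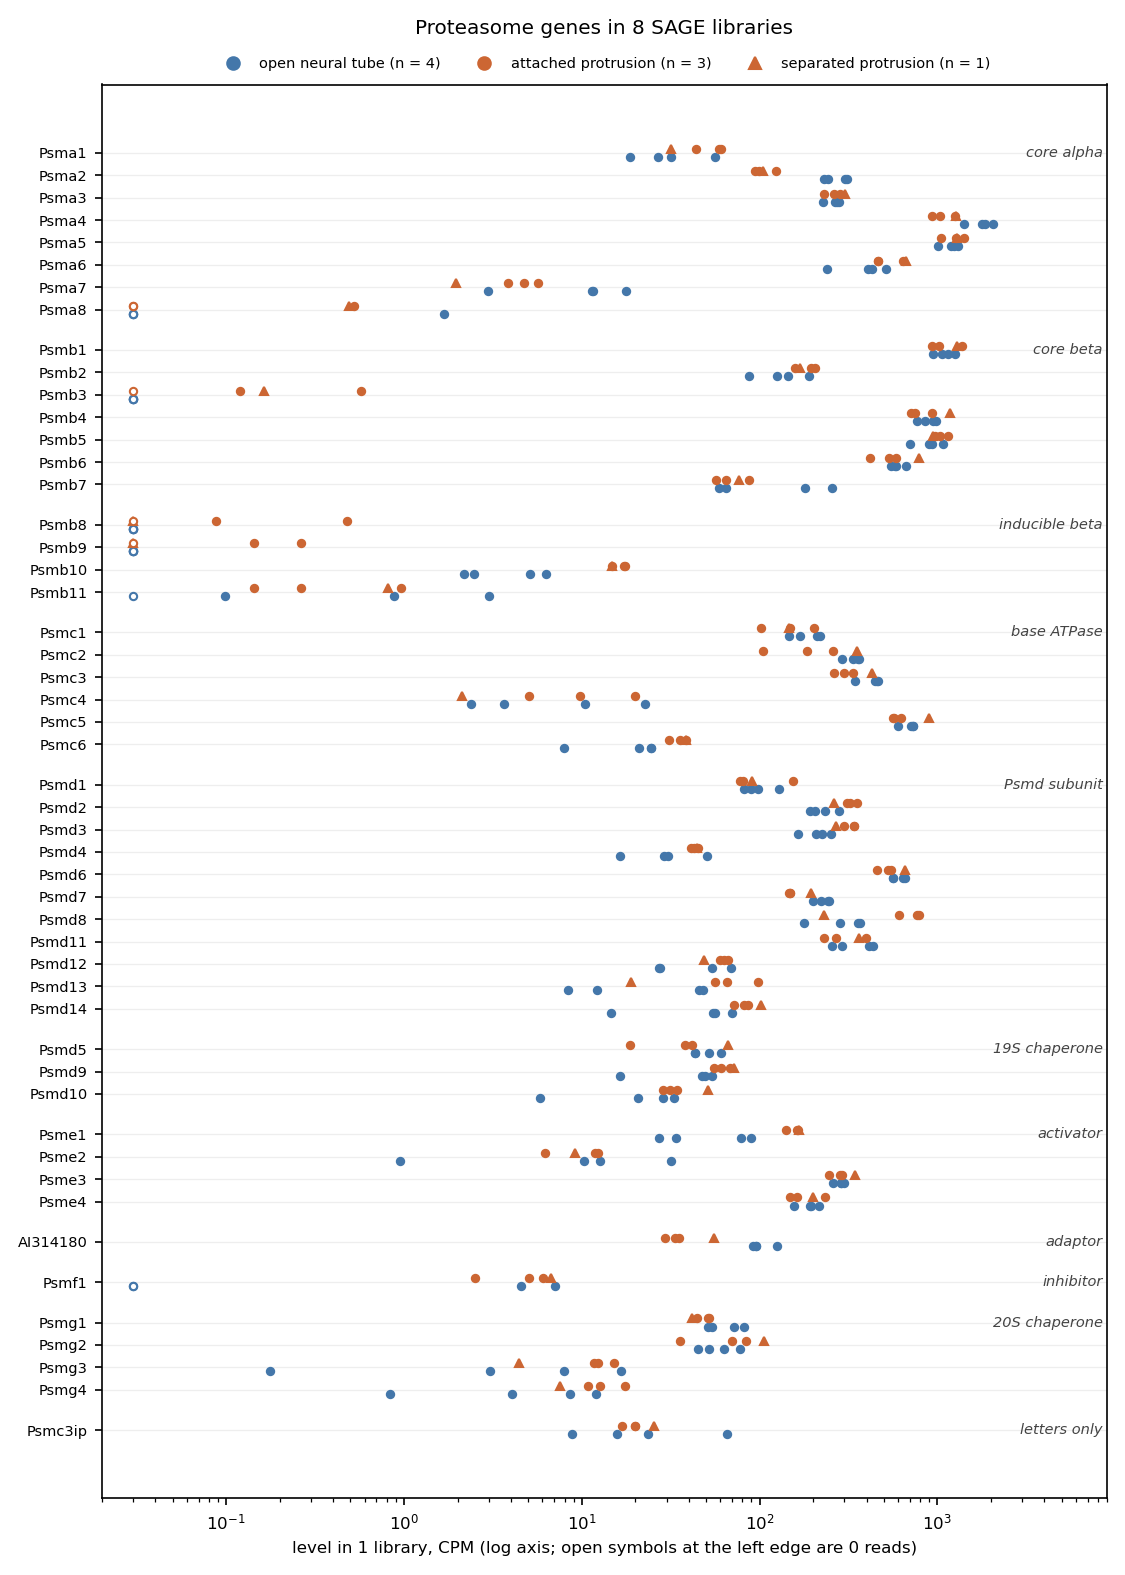
Level of each of the 50 proteasome genes in each library, in CPM on a log axis, grouped by class, with open neural tube below and protrusions above each line. Open symbols at the left edge stand for 0 reads. Levels span from 0 CPM to 2068 CPM (Psma4 in open neural tube 13), and the 4 protrusion values of Psma2 and AI314180 all lie left of the 4 open neural tube values.

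Separation of the libraries was read against all genes tested. In 10 of the 45 tested members the 4 protrusion values did not overlap the 4 open neural tube values, 22.2% against 13.4% of all genes tested. Protrusions were higher in 6 of these 10 (Psmb10, Psmc6, Psmd3, Psmd14, Psmd9 and Psme1) and lower in 4 (Psma2, Psma4, Psmd7 and AI314180), against 8.84% and 4.55% of all genes tested. Against attached protrusions alone the same 2 members passed, both lower, at 0.741% of the 11466 genes tested lower and 0.759% higher (1.50% in either direction). There, 5 members were higher and 6 lower at an unadjusted p under 0.05, against 9.16% and 8.52% of all genes tested. With all 8 libraries, at an unadjusted p under 0.05 in edgeR, 4 members were higher and 6 lower, where 7.02% and 8.33% of all genes tested were. Among genes with a mean of at least 50 CPM, 8 of 31 members (25.8%) and 18.6% of all such genes had groups that did not overlap.

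Psma2, a subunit of the alpha ring, had 230, 311, 243 and 301 CPM in open neural tubes 9, 10, 13 and 14. In protrusions 1 to 4 it had 104, 123, 99.9 and 94.3 CPM. Every protrusion, separated or attached, lay below the lowest open neural tube, and the values within each group lay close together. The means were 271 ± 40.6 CPM and 105 ± 12.5 CPM (SD, n = 4 each), a fitted 2.73-fold lower level in protrusions (log2 fold change −1.45 ± 0.18 SE; edgeR adjusted p = 0.0111). Against attached protrusions alone the log2 fold change was −1.44 ± 0.21 (edgeR adjusted p = 0.0194). The call ended without open neural tube 9, 10 or 14 or protrusion 4 (edgeR adjusted p of 0.0567, 0.0596, 0.0791 and 0.0822), with log2 fold changes of −1.50 to −1.34 over all alternatives. In those fits few genes passed at all: 1 of 11535, 8 of 11570, 2 of 11563 and 6 of 11299 tested.

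AI314180, now Ecpas, encodes a large scaffold protein that tethers proteasomes to other cell structures. It had 95, 125, 95.3 and 91.6 CPM in the open neural tubes, and 55.6, 29.4, 35.3 and 33.3 CPM in protrusions 1 to 4. The groups did not overlap, and the separated protrusion lay between the attached ones and the open neural tubes. The means were 102 ± 15.6 CPM and 38.4 ± 11.7 CPM (SD, n = 4 each; log2 fold change −1.49 ± 0.26 SE; edgeR adjusted p = 0.0438). Without the separated protrusion the fold change was −1.73 ± 0.23 (edgeR adjusted p = 0.0163). The call ended without any 1 of the 4 open neural tubes (edgeR adjusted p of 0.0531 to 0.0932) and without protrusion 2, 3 or 4 (0.137, 0.131 and 0.154). Over all genes tested, 1, 8, 52 and 2 passed without open neural tube 9, 10, 13 and 14. Without protrusion 2, 3 and 4, 19, 22 and 6 passed.

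**Figure D2:**
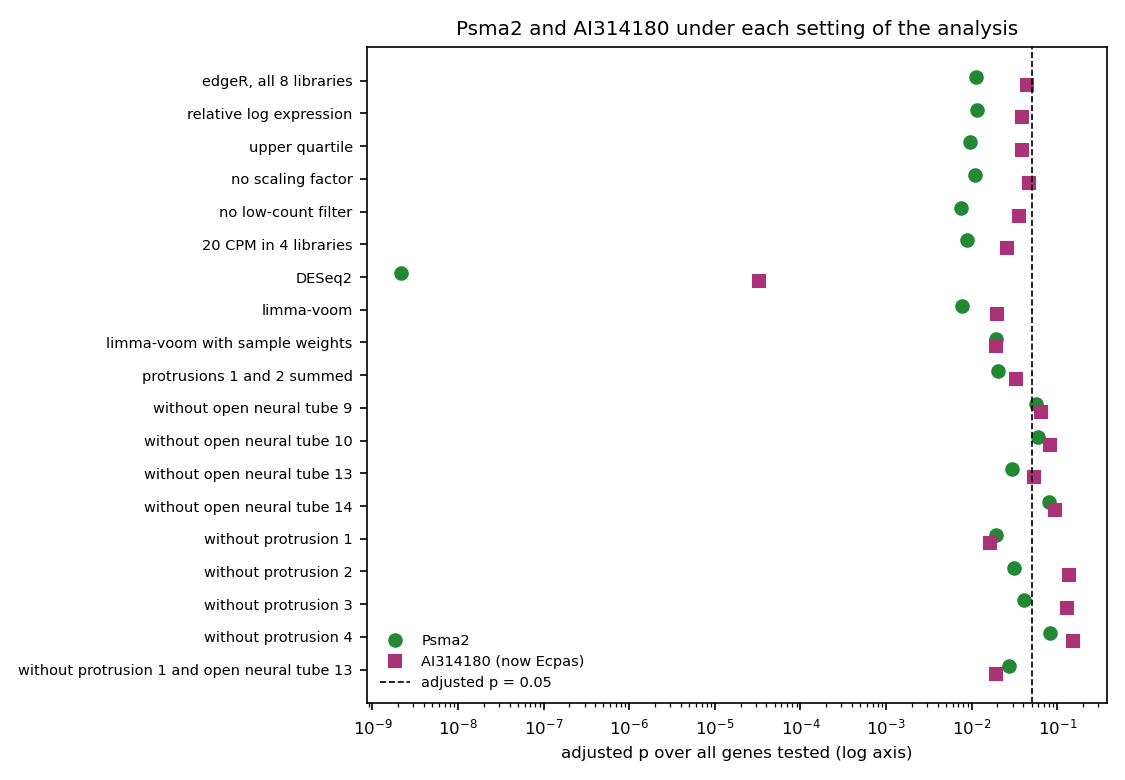
Adjusted p over all genes tested for Psma2 (circles) and AI314180 (squares) under each setting, on a log axis with the threshold of 0.05 as a dashed line. Psma2 passed in 14 and AI314180 in 11 of 18 alternatives to the edgeR fit on all 8 libraries, and every setting right of the line leaves out 1 library.

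The remaining alpha subunits showed no common direction. Psma4, the most abundant member, had 1788, 1419, 2068 and 1848 CPM in open neural tubes 9, 10, 13 and 14 and 1275, 1251, 932 and 1040 CPM in protrusions 1 to 4. The groups did not overlap, but the difference did not pass (−0.75 ± 0.20 on the log2 scale; edgeR adjusted p = 0.0849). It passed with DESeq2 (adjusted p = 0.00889) and with limma-voom (0.0411), where 7.20% and 3.52% of all genes tested passed. Psma5, next in abundance, stood at 1191 ± 131 CPM and 1258 ± 152 CPM (SD, n = 4 each), and Psma3 at 262 ± 22.6 CPM and 269 ± 30.6 CPM (SD, n = 4 each). For both the groups overlapped widely. Within a library, the ratio of Psma4 to Psma5 was between 1.36 and 1.74 in open neural tube but 0.73 to 1.19 in protrusions, and that of Psma2 to Psma3 was 0.841 to 1.36 and 0.334 to 0.469. Neither ratio overlapped between the groups, and both were chosen after the values were seen.

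Psma6 had 241 to 515 CPM in open neural tube and 463 to 666 CPM in protrusions, and Psma1 18.7 to 56.3 CPM and 31.6 to 60.3 CPM. Psma7, as necessary to the ring as the others, was counted at only 2.96 to 17.7 CPM and 1.96 to 5.65 CPM. Psma8, a form of the ring used in testis, was at 0 in 5 libraries and reached 1.68 CPM in open neural tube 13. Summed over the 8 alpha genes, levels were 3947 ± 490 CPM in open neural tube and 3369 ± 249 CPM in protrusions (SD, n = 4 each), and the groups overlapped. Psma2 made up 5.57% to 9.59% of that sum in open neural tube, against 2.82% to 3.63% in protrusions.

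**Figure D3:**
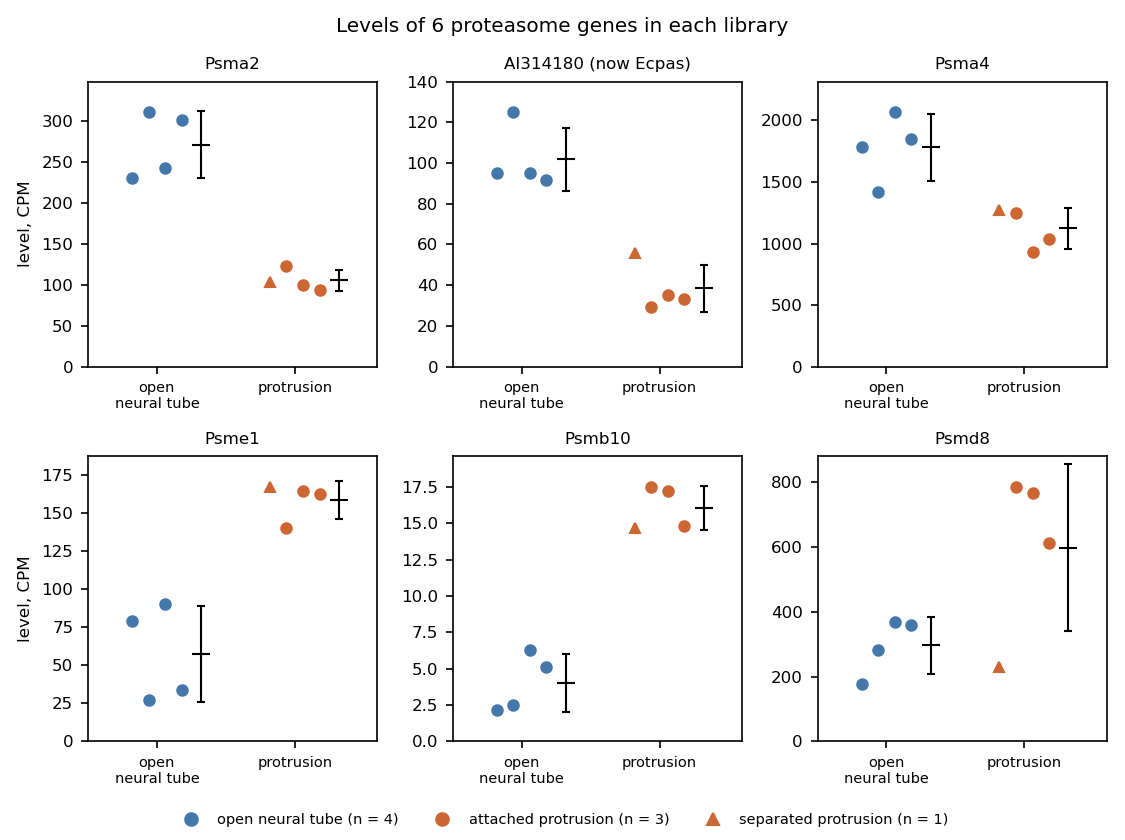
Levels in CPM of 6 proteasome genes in each library, on linear axes from 0, with the mean and SD of each group as a bar beside the points (n = 4 each). Psma2, AI314180 and Psma4 are lower and Psme1 and Psmb10 higher in all 4 protrusions, whereas Psmd8 in the separated protrusion (230 CPM, triangle) lies among the open neural tubes.

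For the constitutive beta subunits no difference passed. Of 7 members, 6 were tested and 0 passed with edgeR, DESeq2 or limma-voom, with a median log2 fold change of −0.05, 1 member at an unadjusted p under 0.05, and overlapping groups in all 6. Psmb5, which carries the chymotrypsin-like site, had 930, 1080, 706 and 898 CPM in open neural tube and 951, 1034, 966 and 1155 CPM in protrusions 1 to 4. Psmb1 stood at 1101 ± 129 CPM and 1158 ± 212 CPM, and Psmb6, which carries the caspase-like site, at 595 ± 49.9 CPM and 583 ± 154 CPM (SD, n = 4 each). For Psmb1 and Psmb6 the difference of the means was smaller than the SD of either group, and for Psmb5 it was smaller than the SD in open neural tube (154 CPM) but not in protrusions (92.7 CPM). Psmb7, which carries the trypsin-like site, was the member with an unadjusted p under 0.05, at 180 and 254 CPM in open neural tubes 9 and 10 but 59 and 64.8 CPM in 13 and 14, and 57 to 87.6 CPM in protrusions (−1.03 ± 0.44; edgeR adjusted p = 0.3). Its open neural tubes thus split into a high and a low pair, and the low pair lies within the protrusion range. Psmb2 had 87.5 to 189 CPM and 158 to 204 CPM (edgeR adjusted p = 0.577). Psmb3, a structural beta subunit that every proteasome needs, was listed at 0 in all 4 open neural tubes and reached 0.574 CPM in protrusion 2, so a listing at 0 cannot be read as absence.

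Of the inducible beta forms, which replace the constitutive sites in immune and interferon-exposed cells, only Psmb10 could be tested. Psmb10, the counterpart of Psmb7, had 2.17, 2.47, 6.3 and 5.13 CPM in open neural tubes 9, 10, 13 and 14 and 14.7, 17.5, 17.2 and 14.8 CPM in protrusions 1 to 4. The groups did not overlap and the protrusions lay close together, but the difference did not pass (1.89 ± 0.62 on the log2 scale; edgeR adjusted p = 0.167), except with DESeq2 (adjusted p = 0.0142). Its level lies in the range in which the open neural tube libraries miss many genes. Psmb8, the counterpart of Psmb5, was at 0 in 6 libraries and at most 0.481 CPM, Psmb9, the counterpart of Psmb6, was at most 0.262 CPM, and Psmb11, the thymic form, at most 3 CPM. Psmb8 and Psmb9 had at most 4 and 3 reads in any library, so a difference was not detectable at this depth. The last CATG of Psmb8 lies only 6 bases from the transcript end. Under the assumed tag it gives no full tag, so its low count cannot be read as low expression. The 7 immune cell markers summed to at most 5.53 CPM in open neural tube and 1.15 CPM in protrusions, with Csf1r, Lyz2, Tyrobp and Aif1 at 0 in all libraries.

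Of the 6 ATPases of the base, 5 had fitted log2 fold changes below 0, and 0 of 6 passed with edgeR, DESeq2 or limma-voom (1 at an unadjusted p under 0.05 in edgeR). Their median log2 fold change was −0.29, and −0.37 against attached protrusions alone. Summed over the 6 genes, levels were 1643, 1584, 1806 and 1667 CPM in open neural tubes 9, 10, 13 and 14 and 1865, 1281, 1197 and 1319 CPM in protrusions 1 to 4. The separated protrusion was thus the highest library of all and the 3 attached protrusions the lowest. Psmc5 had 603 to 730 CPM in open neural tube, 893 CPM in the separated protrusion and 563 to 621 CPM in the attached ones (edgeR adjusted p = 0.79, and 0.351 against attached protrusions). Psmc3 stood at 429 ± 57.9 CPM and 332 ± 72.3 CPM (SD, n = 4 each; −0.46 ± 0.19; edgeR adjusted p = 0.286). Against attached protrusions alone, at 300 ± 36.5 CPM (SD, n = 3), Psmc3 had −0.62 ± 0.18 (edgeR adjusted p = 0.0873). Psmc2 had 354 CPM in the separated protrusion, within the 291 to 363 CPM of open neural tube, and 105 to 259 CPM in the attached ones, below it (chosen after its values were seen). Psmc6 went the other way, at 7.94 to 24.6 CPM in open neural tube and 30.8 to 38.6 CPM in protrusions, without overlap (0.78 ± 0.40; edgeR adjusted p = 0.395). Psmc1 had 147 to 219 CPM and 102 to 202 CPM, and Psmc4 2.39 to 22.8 CPM and 2.13 to 19.8 CPM.

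**Figure D4:**
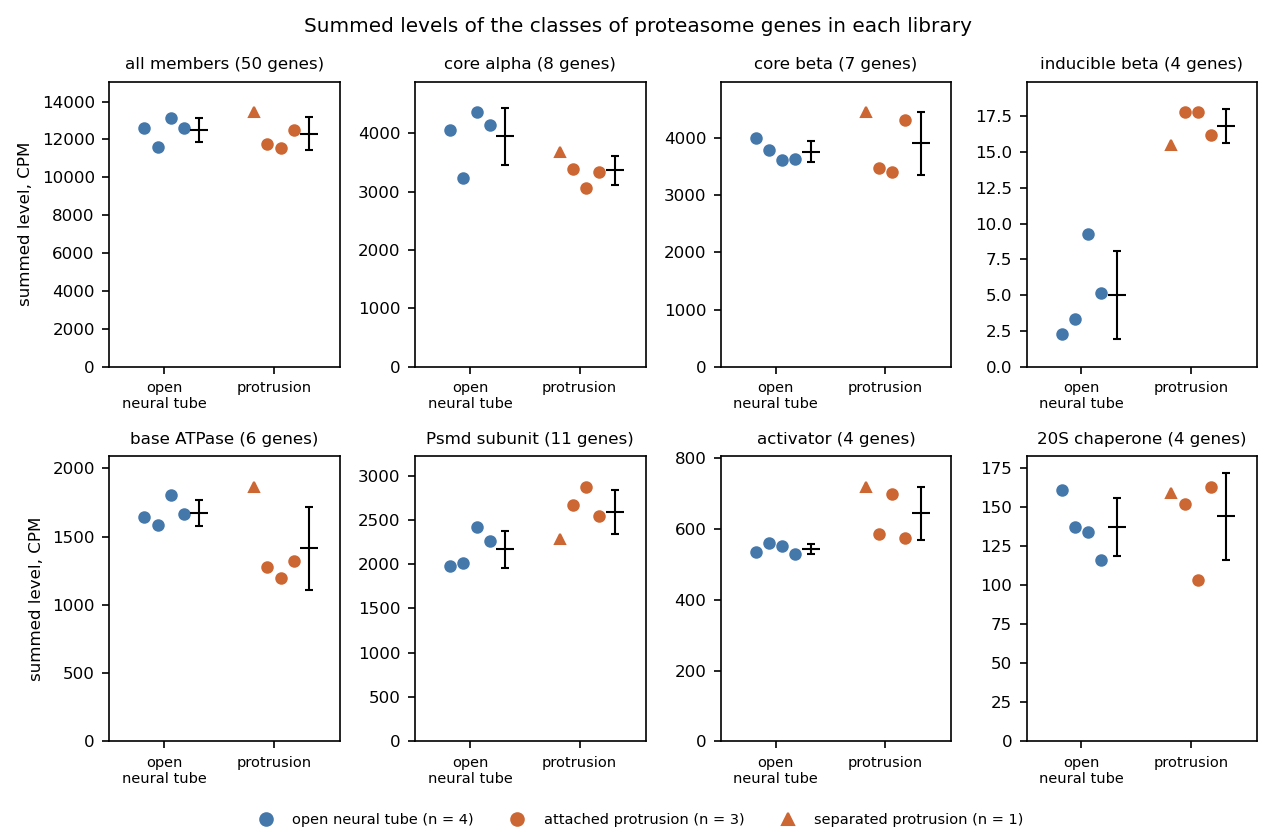
Summed CPM of all 50 members and of 7 classes in each library, on linear axes from 0, with mean and SD (n = 4 each) beside the points. The sum over all members is level, the separated protrusion (triangle) holds the highest base ATPase sum at 1865 CPM, and the inducible beta sum is 2.27 to 9.31 CPM in open neural tube and 15.5 to 17.8 CPM in protrusions.

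The non-ATPase Psmd subunits comprise those of the lid, Psmd1 and Psmd2, which belong to the base, and the ubiquitin receptor Psmd4. They had 7 of 11 fitted log2 fold changes above 0. Of the 11, 0 passed with edgeR or limma-voom and 1, Psmd7, with DESeq2; 2 were higher and 1 lower at an unadjusted p under 0.05 in edgeR, and the median log2 fold change was 0.37. Their sum was 1977, 2012, 2420 and 2262 CPM in open neural tubes 9, 10, 13 and 14, 2278 CPM in the separated protrusion and 2667, 2873 and 2547 CPM in the attached ones. Only the separated protrusion overlapped the open neural tubes. Psmd8, a lid subunit added late in assembly, carried much of this, with 178, 282, 367 and 358 CPM in open neural tube, 230 CPM in the separated protrusion and 785, 765 and 611 CPM in the attached ones. Over all 8 libraries its log2 fold change was 0.92 ± 0.36 (edgeR adjusted p = 0.253). Against attached protrusions alone it was 1.19 ± 0.26 (edgeR adjusted p = 0.0598), still short of the threshold. Psmd13 showed a like order, at 8.39 to 48.1 CPM, 18.8 CPM and 56.1 to 98.3 CPM (chosen after its values were seen; edgeR adjusted p = 0.542, and 0.341 against attached protrusions).

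Psmd3, a lid scaffold subunit, had 164 to 252 CPM in open neural tube and 269 to 341 CPM in protrusions, without overlap (0.46 ± 0.18; edgeR adjusted p = 0.242). Psmd14, the deubiquitinase that strips ubiquitin from substrates, had 70.4, 14.6, 56.1 and 54.4 CPM in open neural tube and 102, 71.8, 86.2 and 81.7 CPM in protrusions 1 to 4 (edgeR adjusted p = 0.489). Its inactive partner in the lid, Psmd7, lay the other way, at 199, 242, 245 and 221 CPM and 194, 149, 146 and 149 CPM. Psmd7 did not pass (−0.59 ± 0.18; edgeR adjusted p = 0.123), except with DESeq2 (adjusted p = 0.0332), and had −0.71 ± 0.17 against attached protrusions alone (edgeR adjusted p = 0.0768). Psmd6, the most abundant Psmd transcript, stood at 604 ± 50.3 CPM and 548 ± 81.6 CPM (SD, n = 4 each). Psmd4, a ubiquitin receptor, had 16.5 to 50.5 CPM and a narrow 41.3 to 45.1 CPM in protrusions. Psmd2, the large scaffold and receptor subunit, had 192 to 278 CPM and 263 to 354 CPM, with overlap. Psmd1, Psmd11 and Psmd12 overlapped between the groups with fitted log2 fold changes of −0.10, −0.26 and 0.33 (edgeR adjusted p of 0.909, 0.681 and 0.711).

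**Figure D5:**
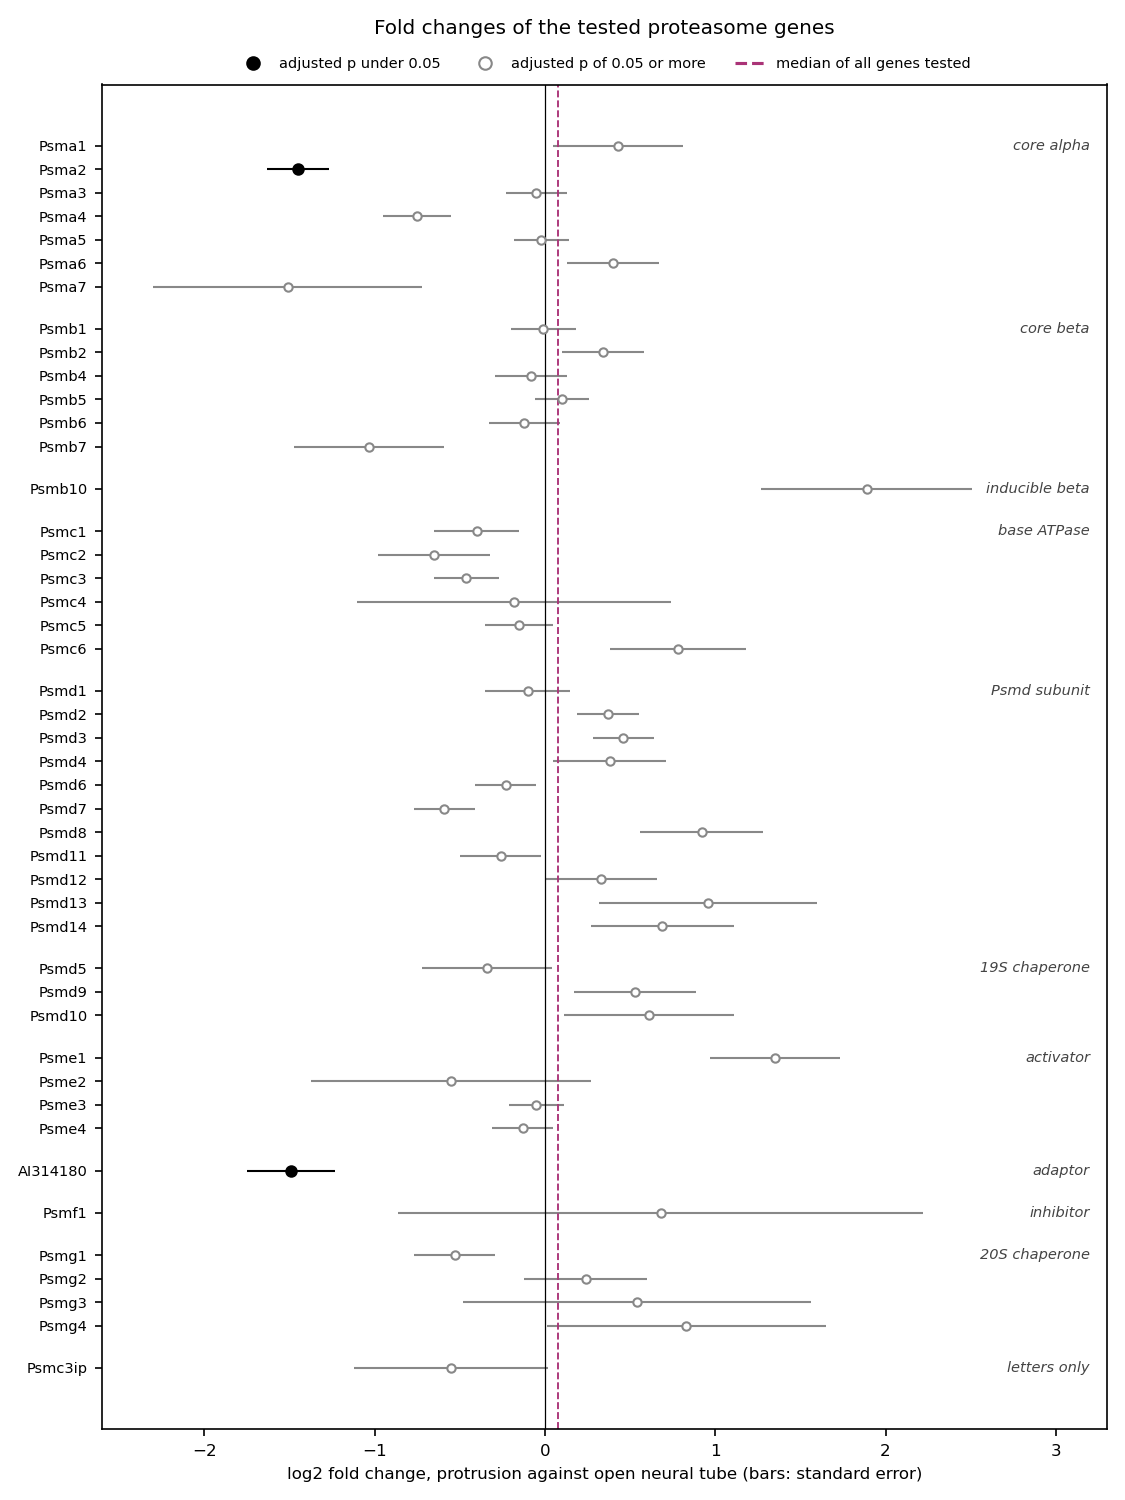
Fitted log2 fold change of each of the 45 tested proteasome genes, protrusion against open neural tube, with its standard error as a bar, grouped by class. Filled symbols mark Psma2 and AI314180, which passed the adjusted p of 0.05, and the dashed line is the median over all genes tested, 0.08.

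Among the activators 0 of 4 passed with edgeR (1 at an unadjusted p under 0.05), and 1, Psme1, with DESeq2 and limma-voom. Summed over the 4 genes, levels were 529 to 561 CPM in open neural tube and 576 to 720 CPM in protrusions, without overlap. Of the 4 genes, only Psme1 had groups that did not overlap. Psme1, which forms a ring activator with Psme2 and is best known from interferon responses, had 78.9, 27.2, 89.9 and 34 CPM in open neural tubes 9, 10, 13 and 14. It had 167, 140, 164 and 162 CPM in protrusions 1 to 4. The groups did not overlap, and the open neural tubes scattered far more than the protrusions. The means were 57.5 ± 31.5 CPM and 158 ± 12.6 CPM (SD, n = 4 each; 1.35 ± 0.38; edgeR adjusted p = 0.107), and the difference passed with DESeq2 (adjusted p = 0.0123) and limma-voom (0.0491). Its partner Psme2 did not share this pattern, at 0.955 to 31.6 CPM and 6.25 to 12.3 CPM (edgeR adjusted p = 0.823), although its tag is shared with the gene Psme2b. Psme3, the nuclear activator, was steady at 288, 287, 259 and 299 CPM and 345, 285, 291 and 245 CPM, and Psme4, a large single-chain activator, at 190 ± 24.4 CPM and 185 ± 37.3 CPM (SD, n = 4 each). The inhibitor Psmf1 was at 0 in open neural tubes 9 and 10, at 4.56 and 7.04 CPM in 13 and 14, and at 2.52 to 6.71 CPM in protrusions (edgeR adjusted p = 0.895).

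No assembly chaperone passed (0 of 7 tested with edgeR, DESeq2 or limma-voom, and 0 at an unadjusted p under 0.05 in edgeR). Psmd9, a chaperone of the base, had 47.5, 54.2, 49.2 and 16.4 CPM in open neural tube and 55.5 to 71.5 CPM in protrusions, without overlap (edgeR adjusted p = 0.543). The base chaperones Psmd5 and Psmd10 had 43.4 to 60.3 CPM and 5.82 to 33 CPM in open neural tube, and 18.7 to 66.3 CPM and 28.5 to 51.2 CPM in protrusions. Of the core chaperones, which pair as Psmg1 with Psmg2 and Psmg3 with Psmg4, Psmg1 stood at 64.6 ± 14.6 CPM and 47.4 ± 5.19 CPM, and Psmg2 at 59.3 ± 14.3 CPM and 74 ± 29.3 CPM (SD, n = 4 each; edgeR adjusted p of 0.34 and 0.822). Psmg3 had 0.176 to 16.7 CPM and 4.42 to 15.1 CPM, and Psmg4 0.836 to 12 CPM and 7.53 to 17.6 CPM, both with overlap. Psmc3ip, the member by letters only, had 8.79 to 66 CPM and 16.9 to 25.5 CPM.

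The coefficient of variation was larger in open neural tube than in protrusions for 27 of the 45 tested members, 60%, against 77.8% of all genes tested. Among genes with a mean of at least 50 CPM it was 14 of 31 members, 45.2%, against 62.2%. The median coefficient over the 45 members was 24.2% in open neural tube and 19.8% in protrusions.

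Other genes of the ubiquitin-proteasome pathway were taken from a list of 41, of which 40 were in the tables and 34 were tested. One passed, at 0.607% of all genes tested: Zfand5, a zinc finger protein that binds the proteasome and stimulates it, was lower in protrusions. Zfand5 had 1023, 909, 760 and 856 CPM in open neural tubes 9, 10, 13 and 14, 576 CPM in the separated protrusion and 284, 314 and 348 CPM in the attached ones. As with AI314180, the separated protrusion lay between the attached ones and the open neural tubes. Its log2 fold change was −1.31 ± 0.24 (edgeR adjusted p = 0.0494), and −1.59 ± 0.18 against attached protrusions alone (edgeR adjusted p = 0.00976). The call ended without each open neural tube in turn (edgeR adjusted p of 0.0531 to 0.0932) and without protrusion 2, 3 or 4 (0.131 to 0.173). In each of these fits only 1 to 52 of all genes tested passed.

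The median log2 fold change over the 34 tested pathway genes was −0.02, with 3 higher and 7 lower at an unadjusted p under 0.05 in edgeR, where 7.02% and 8.33% of all genes tested were. Fitted log2 fold changes were above 0 in 17 of the 34 and below 0 in 17. The groups did not overlap in 6 of the 34, 2 higher and 4 lower, 17.6% against 13.4% of all genes tested. Among the higher was Akirin2, at 96.3 to 142 CPM in open neural tube and 149 to 190 CPM in protrusions (chosen after its values were seen; edgeR adjusted p = 0.242). Ubqln2, a shuttle that carries ubiquitinated proteins to the proteasome, had 515, 645, 609 and 747 CPM in open neural tube and 476, 241, 346 and 301 CPM in protrusions 1 to 4, without overlap. Its edgeR adjusted p was 0.0745, and 0.0252 against attached protrusions alone. Ubqln2 passed with DESeq2 (adjusted p = 0.00242) and limma-voom (0.0283), where 7.20% and 3.52% of all genes tested passed. Shfm1, now Sem1, the smallest lid subunit, stood at 397 ± 46.1 CPM and 284 ± 19.5 CPM, and Rbx1, the RING subunit of cullin ligases, at 1463 ± 97 CPM and 971 ± 201 CPM (SD, n = 4 each; edgeR adjusted p of 0.105 and 0.115). In both the groups did not overlap. Shfm1 and Rbx1 passed with DESeq2 (adjusted p of 0.0217 and 0.03) but not with limma-voom (0.0792 and 0.0529). Rps27a, which encodes ubiquitin fused to a ribosomal protein, was listed at 0 in all 8 libraries although every cell uses it. Vcp, the unfoldase that delivers substrates, had 1509 to 1888 CPM and 1377 to 1665 CPM, and its cofactor Nploc4 138 to 194 CPM and 189 to 240 CPM (edgeR adjusted p of 0.506 and 0.452). The ubiquitin-activating enzymes Uba1 and Uba6 had edgeR adjusted p of 0.841 and 0.774, with Uba6 at most 8.66 CPM.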

How the data were processed

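SAGE libraries were made with a SOLiD SAGE kit from 7 to 12 ng of total RNA, per the labels' protocols. The deposited files hold whole-number read counts per gene symbol, without normalization. The submitters' processing notes name build mm9. The sources used here do not give the mapper, the rule for tags with several matches, or strand use. Groups came from source names, open neural tube numbers from titles, and protrusion numbers from listing order. CPM were computed here over all listed genes. Groups were compared with edgeR 4.0.16 in R 4.3.3 (filterByExpr, minimum count 10; TMM; robust quasi-likelihood F test, 2-sided; Benjamini-Hochberg over all genes tested; threshold 0.05; common dispersion 0.556), with DESeq2 1.42.0, limma 3.58.1 and other settings as alternatives. Standard errors were derived from the F statistic. The fit was also run on simulated data with known changes, whose recovery at small fold changes is not reported here. Members and lists were chosen with earlier results of these data known. Named were members past the threshold, the 2 most abundant of each class, the 2 of smallest p where none passed, and all activators, inhibitors, core chaperones and inducible forms; from the pathway list, genes past the threshold, otherwise per role the smallest p and the most abundant. The values of 2 pathway genes that this rule names are not reported here. Floors of 3 reads cover counting error only; reads are not independent molecules.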

Additional observations from a re-analysis of the deposited data

Results flagged for a closer look

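In groups of 4 libraries, 6 values stood apart from the other 3 by a gap above Dixon's 95% critical value for that size. Chance gives such a gap in about 1 in 20 groups, and 86 groups of single genes were examined. AI314180 was at 125 CPM in open neural tube 10, above the other 3 at 91.6 to 95.3 CPM. Its call ended without this library (edgeR adjusted p = 0.0827; log2 fold change −1.35). It also ended without open neural tube 9, 13 or 14 (edgeR adjusted p of 0.0652, 0.0531 and 0.0932). Psmd7 was at 194 CPM in the separated protrusion, above 146 to 149 CPM in the attached ones. Psmc5 was at 603 CPM in open neural tube 10, below 714 to 730 CPM, and Psmc3 at 343 CPM in open neural tube 14, below 446 to 466 CPM. Psma8 was at 1.68 CPM in open neural tube 13 and at 0 in the other 3. Uba6 was at 0 CPM in open neural tube 10 and at 2.75 to 2.96 CPM in the other 3.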

How the results depend on the processing

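The number of members past the threshold was 2 and became 6 with DESeq2 (adding Psma4, Psmd7, Psmb10 and Psme1), 4 with limma-voom (adding Psma4 and Psme1) and 0 to 2 when 1 library was left out. The number over all genes tested moved as well, from 67 to 795 with DESeq2 and 389 with limma-voom. It was 1 to 172 when 1 library was left out. Psma2 and AI314180 were lower in protrusions in all 18 alternatives. The number of pathway genes past the threshold was 1 and became 5 with DESeq2, 2 with limma-voom, with or without sample weights, 2 with a filter of 20 CPM in 4 libraries, 2 without protrusion 1 and open neural tube 13, and 0 to 2 when 1 library was left out. Over all genes tested, 222 passed with limma-voom and sample weights and 211 without protrusion 1 and open neural tube 13. With the filter of 20 CPM, 157 of 5590 passed. The median log2 fold change of the core chaperones was 0.39 and became −0.13 with the filter of 20 CPM, which kept fewer genes. The ratio of summed levels over all members, protrusion to open neural tube, was 0.985 and became 0.926 with TMM scaling. Of 695 values of named genes under alternatives, 662 stayed on their side of the threshold, 18 lost and 15 gained a call, and 0 calls changed direction. Most of these values are of genes not called with all 8 libraries. All 18 losses fell on the called genes: Psma2 lost its call in 4 of 18 alternatives, AI314180 in 7 and Zfand5 in 7. No paired analysis was possible because the labels give the protrusions no replicate numbers and tie no protrusion to an open neural tube. The low complexity of the open neural tube libraries limits what can be said of members under about 20 CPM.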

Other observations

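Some pathway genes differed more between open neural tubes than between the groups (chosen after their values were seen). Cul1, the scaffold of SCF ubiquitin ligases, had 185 CPM in open neural tube 9, 11.5, 38 and 22.9 CPM in 10, 13 and 14, and 162 to 207 CPM in protrusions. Uba1, the main ubiquitin-activating enzyme, had 25.2 CPM in open neural tube 13 and 154 to 212 CPM in the other 3, with 156 to 201 CPM in protrusions. Ubqln4, a shuttle factor, had 125 and 81.5 CPM in open neural tubes 9 and 10, 7.38 and 19.7 CPM in 13 and 14, and 71 to 138 CPM in protrusions.

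Promoter windows of 300 bases from RefSeq (GRCm38.p6) were matched for 41 of the 49 members other than Psmc3ip. The letters TGACNNNGC, bound by the transcription factors Nfe2l1 and Nfe2l2 that drive proteasome genes, stood on either strand in 6 of the 41 (14.6%), against 12.5% of 27025 windows, 1 for each gene. The letters CCAAT stood on either strand in 14 of the 41 (34.1%) and in 37.9% of all windows. The members with TGACNNNGC were Psmb5, Psmb6, Psmc6, Psmd12, Psmd9 and Psme4, so neither Psma2 nor AI314180 was among them. Nfe2l1, given for its link to these letters and outside the rule for named genes, had 91.3 to 120 CPM in open neural tube and 79.7 to 118 CPM in protrusions (edgeR adjusted p = 0.834).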
